A study of Homo sapiens with 5 samples.

Results

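The anti-apoptotic BCL2 family comprised 5 genes, BCL2, BCL2L1 (which encodes BCL-xL), BCL2L2 (BCL-w), MCL1 and BCL2A1 (A1). They were selected by symbol, and all 5 had a row among the 30476 genes of the RNA-seq count table. The table held 5 libraries of TOV21G, an established ovarian clear cell carcinoma line in which ARID1A, a subunit of the SWI/SNF chromatin remodeling complex, is mutated. Parental cells, labelled as control, gave 1 library. EZH2 inhibitor-resistant (EIR) cells were selected from them in the EZH2 inhibitor GSK126 at 5 uM, then 10, 15 and 20 uM, after which clones were picked. EIR clones 3 and 4 were each sequenced once untreated and once treated with GSK126, which gave 4 EIR libraries. All groups share the ARID1A mutation and the culture medium. How much GSK126 the treated cultures received, and for how long, was not used here, and each EIR clone is 1 picked clone and not a population.

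Anti-apoptotic BCL2 proteins sit on the outer membrane of mitochondria, where they hold the effectors BAX and BAK1 and the BH3-only proteins that would set the effectors free. When the effectors assemble into pores, cytochrome c leaves the mitochondrion and activates the apoptosome with its caspases. BCL2, BCL-xL and BCL-w share a groove that the small molecule ABT263 occupies, ABT199 is selective for BCL2, and MCL1 and A1 are bound by neither drug. MCL1 is a short-lived protein, so its RNA and its protein can differ in amount.

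Total counts per library ranged from 25479238 to 30764963. Of 7 epithelial and clear cell markers in the table, PAX8, KRT8 and KRT18 had at least 3031 counts in every library, whereas EPCAM had 398 to 498 counts in parental cells and clone 3 and 0 and 1 count in clone 4. CDH1 and NAPSA had at most 6 counts outside clone 3, where they had 50 to 148, and KRT7 had 81 to 199 across the libraries. Stromal and endothelial markers (DCN, LUM and VWF) had at most 50 counts in any library. In bulk RNA, fewer cells with a transcript and less transcript per cell cannot be told apart. With 1 parental library, every spread came from the EIR libraries, and p-values measure the spread between these libraries only. An exact permutation of 1 library against 4 cannot give a p below 0.2 (one-sided), nor one of 2 against 2 a p below 0.333 (two-sided), so single values are given without such a test.

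The members lie on 5 chromosomes (GRCh37). BCL2 (ENSG00000171791, chromosome 18, 60790579 to 60987361, minus strand) spans 196.8 kb, and BCL2L1 (ENSG00000171552, chromosome 20, 30252255 to 30311792, minus strand) spans 59.5 kb. MCL1 (ENSG00000143384, chromosome 1, 150533371 to 150552214, minus strand), BCL2L2 (ENSG00000129473, chromosome 14, 23767999 to 23780960, plus strand) and BCL2A1 (ENSG00000140379, chromosome 15, 80253234 to 80263538, minus strand) span 10.3 to 18.8 kb. Counts were summed over a gene's transcripts, so splice forms with opposing activities, which BCL2L1 and MCL1 are both known to make, were not separated.

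Promoters are shown for 2 members that mark the ends of the results below, BCL2, the member called higher in EIR cells, and BCL2A1, which had no count in 3 libraries. Each sequence is the 250 bases before the RefSeq start on GRCh38.p14, minus strand, written 5′ to 3′ with CpG dinucleotides in capitals. The BCL2 window is chr18:63319770-63320019 and the BCL2A1 window is chr15:79971197-79971446.
BCL2: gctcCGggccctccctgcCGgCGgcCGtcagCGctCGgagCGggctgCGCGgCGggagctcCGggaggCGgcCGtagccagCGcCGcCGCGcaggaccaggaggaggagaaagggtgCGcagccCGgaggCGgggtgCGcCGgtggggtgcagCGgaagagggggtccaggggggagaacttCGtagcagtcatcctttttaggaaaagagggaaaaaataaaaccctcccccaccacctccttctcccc
BCL2A1: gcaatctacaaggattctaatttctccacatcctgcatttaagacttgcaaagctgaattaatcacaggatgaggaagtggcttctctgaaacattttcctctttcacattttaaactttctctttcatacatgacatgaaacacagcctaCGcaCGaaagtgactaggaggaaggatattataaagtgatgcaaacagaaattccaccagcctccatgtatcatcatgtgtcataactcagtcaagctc
The BCL2 window held 24 CpG dinucleotides and 70.0% G and C, against medians of 11 and 58.0% over 35116 promoter windows of this length. The BCL2A1 window held 2 CpG dinucleotides and 38.8% G and C. The letters TATAAA, searched on both strands, occurred once in the BCL2A1 window and not in the BCL2 window, and 10.7% of all windows held them. The 2 annotated BCL2L1 starts had 17 and 12 CpG dinucleotides, with TATAAA at 2 places before the first and not before the other. These letters are a description of the windows, and methylation or binding at them was not analysed here.

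BCL2, the founding member and the target of ABT199, was higher in EIR cells. Its normalized count (counts divided by the DESeq2 size factor) was 361.6 in parental cells, 579 in untreated clone 3, 688 in GSK126-treated clone 3, 564 in untreated clone 4 and 665 in GSK126-treated clone 4. All 4 EIR libraries lay above the parental library, which stood outside the EIR range, on either side, for 72.5 percent of the 11564 expressed genes (mean normalized count of 100 or more). The EIR mean was 624 ± 61.9 (SD, n = 4), 1.73 times the parental value. In DESeq2 this was a log2 fold change of 0.79 (SE 0.24, 95% interval 0.32 to 1.25) with an adjusted p of 0.0060. Of the 4 members that received an adjusted p, 1 was called, against 25.5 percent of all 16288 genes tested in either direction and 12.4 percent called higher.
The BCL2 call depended on the tool, on 1 library and on how the EIR libraries were grouped. With the quasi-likelihood test of edgeR the log2 fold change was 0.78 and the adjusted p 0.0596, where 11.1 percent of genes and none of the members were called. Without GSK126-treated clone 3 it was 0.73 with an adjusted p of 0.0609 in DESeq2, and with the libraries of each clone summed it was 0.79 with an adjusted p of 0.142. With treatment as covariate it was 0.66 with an adjusted p of 0.143. Because the only parental library is untreated, the fit with treatment as covariate amounts to the comparison of untreated EIR with parental cells given below. It is not a separate result. The direction held in all 12 alternatives, with log2 fold changes from 0.66 to 0.86.

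BCL2L1, which encodes a further target of ABT263, lay above its parental value in every EIR library, by an amount that did not pass the test. Its normalized count was 3923 in parental cells, 4758 in untreated and 4779 in GSK126-treated clone 3, and 4119 in untreated and 4433 in GSK126-treated clone 4. Untreated clone 4 was the closest to the parental library. The EIR mean of 4522 ± 312 (SD, n = 4) corresponded to a log2 fold change of 0.21 (SE 0.17, 95% interval -0.13 to 0.54), which did not pass (DESeq2 adjusted p = 0.414).
Transcript composition bore on this value. Across 11377 genes the log2 ratio of each EIR library to the parental one fell with GC content (Spearman rho across genes -0.39 to -0.49, genes not being independent replicates), and the BCL2L1 transcripts had 56.6% G and C. When each library's trend with GC content was removed in DESeq2, the log2 fold change of BCL2L1 became 0.52 with an adjusted p of 0.0031, so that it was called. In the same fit 19.4 percent of genes were called and BCL2, at 43.9% G and C, had 0.74 with an adjusted p of 0.0188. The cause of the trend with GC content was not tested.

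BCL2L2 differed least. Its normalized count was 572 in parental cells, 474 and 483 in untreated and GSK126-treated clone 3, and 563 and 552 in untreated and GSK126-treated clone 4. All EIR libraries lay below the parental value, but both clone 4 libraries lay close to it. The log2 fold change was -0.14 (SE 0.23, 95% interval -0.59 to 0.30, DESeq2 adjusted p = 0.693), and it turned to 0.18 with the GC correction.
BCL2L2 shares its exons with an annotated read-through gene on the same strand, BCL2L2-PABPN1, so its counts are uncertain. BCL2L2-PABPN1 itself had a normalized count of 467 in the parental library, and its EIR values ran from 422 to 614. Summed, both genes had 1039 in the parental library and values from 974 to 1177 in EIR cells, so that the parental value lay inside the EIR range. PPP1R3E, on the opposite strand at this locus, had at most 100 counts, and no other overlapping gene with a row in the table had more than 18. Overlapping genes without a row were not analysed here.

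MCL1, which restrains BAK1 and is required for survival in many cell types, had the largest number of counts. Its normalized count was 7954 in parental cells, 6986 and 7104 in untreated and GSK126-treated clone 3, and 7116 and 5931 in untreated and GSK126-treated clone 4. All EIR libraries lay below the parental value, and GSK126-treated clone 4 was the lowest. The EIR mean was 6784 ± 572 (SD, n = 4). The log2 fold change of -0.23 (SE 0.19, 95% interval -0.59 to 0.13) did not pass (DESeq2 adjusted p = 0.396).
The parental library lay outside the range of the 4 EIR libraries for each of the 4 expressed members. With 72.5 percent of expressed genes in the same position, this count says little about the members.

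BCL2A1, a target of NF-kB that is best known from blood cells, was near the detection limit. It had 0 counts in parental cells, 8 in untreated and 12 in GSK126-treated clone 3, and 0 in both clone 4 libraries. Counts were thus seen in clone 3 only. A count of 0 allows up to 3 counts. With 3 counts in place of 0, untreated clone 3 was 2.43-fold above untreated clone 4. GSK126-treated clone 3 was then 3.74-fold above GSK126-treated clone 4. The counts in clone 3 were taken as exact, so these ratios are not lower bounds. As a share of the reads of all members, the Wilson interval of untreated clone 3 began at 0.0293%. It overlapped those of untreated clone 4 (up to 0.0316%) and parental cells (up to 0.0302%). The interval of GSK126-treated clone 3 began at 0.0519%, above the upper ends for GSK126-treated clone 4 (0.0351%) and parental cells. Against parental cells the ratios taken in the same way were 2.45-fold for untreated and 3.92-fold for GSK126-treated clone 3. DESeq2 gave no adjusted p in the comparisons with parental cells or between clones with treatment as a covariate. Without that covariate the fitted difference between clones had an adjusted p of 0.0650 in DESeq2 and did not pass.
Of 6 blood cell markers 3 had a row in the table. PTPRC, the pan-leukocyte marker, had 2 counts in the parental library, 7 and 15 in clone 3, and 2 and 10 in untreated and GSK126-treated clone 4. CD79A had at most 2 counts, and CD14 had 27 counts in parental cells and at most 7 in EIR cells. All libraries come from a cultured carcinoma line, and the source of the few blood marker and BCL2A1 counts was not tested.

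**Figure D1:**
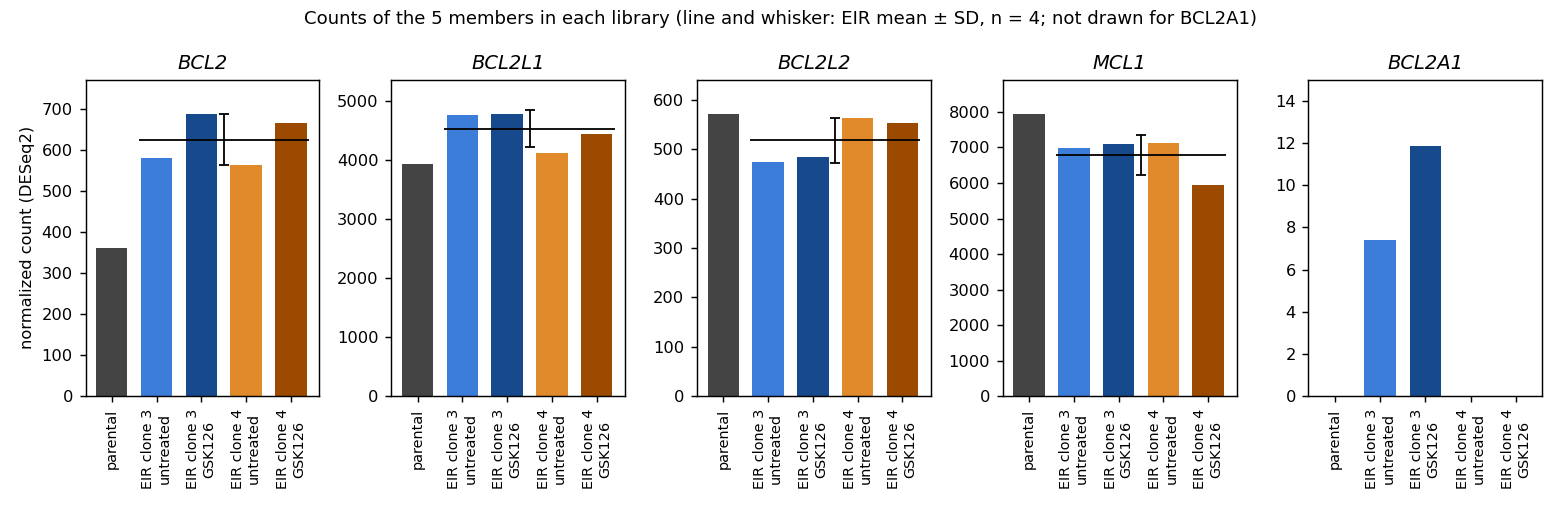
DESeq2-normalized counts (y axis, a separate scale for each gene) of the 5 members in the parental library (grey), EIR clone 3 (blue) and EIR clone 4 (orange), with darker bars for GSK126. The line and whisker give the EIR mean and SD (n = 4) and are left out for BCL2A1. BCL2 is 361.6 in the parental library and 564 to 688 in EIR libraries, and MCL1 is 7954 and 5931 to 7116.

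The fits that separated untreated from GSK126-treated EIR cells asked whether a member differed from parental cells with and without the drug present. Both comparisons use the same parental library. BCL2 had a log2 fold change of 0.66 (SE 0.30) in untreated EIR cells, which did not pass (adjusted p = 0.143 in DESeq2, where 13.2 percent of genes were called), and of 0.90 (SE 0.30) in GSK126-treated EIR cells, which did (adjusted p = 0.0284, with 12.4 percent of genes called and 6.25 percent called higher). The treated call was absent in edgeR (adjusted p = 0.139) and when any 1 EIR library was left out (adjusted p from 0.261 to 0.342). The other expressed members had log2 fold changes of -0.17 to 0.18 in untreated and -0.29 to 0.23 in GSK126-treated EIR cells, and none passed.
In edgeR no member was called in either comparison, against 0.0165 percent of genes in each, and BCL2 alone had an unadjusted p under 0.05.

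GSK126-treated and untreated EIR cells were next compared directly. BCL2 was 0.25 higher on the log2 scale with GSK126 in clone 3 and 0.24 higher in clone 4, a 1.19-fold and a 1.18-fold ratio. BCL2L1 was 0.0065 and 0.11 higher. BCL2L2 (0.028 and -0.027) and MCL1 (0.024 and -0.26) went up in clone 3 and down in clone 4. A rise in both clones was seen for 25.8 percent of expressed genes, and treated and untreated libraries without overlap, as in BCL2, for 15.9 percent.
No member passed in DESeq2, where BCL2 had a log2 fold change of 0.23 (SE 0.23, 95% interval -0.22 to 0.69, adjusted p = 0.9999) and 0.00335 percent of genes were called (0.0134 percent with the clone as a block, again with no member). No member had an unadjusted p under 0.05 in DESeq2 or in edgeR, which also called none. The intervals of BCL2L1 (-0.36 to 0.44), BCL2L2 (-0.54 to 0.51) and MCL1 (-0.53 to 0.28) leave room for changes in either direction.

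Between the EIR clones, clone 4 differed from clone 3 by log2 fold changes of -0.049 for BCL2 (SE 0.24), -0.16 for BCL2L1 (SE 0.17), 0.21 for BCL2L2 (SE 0.25) and -0.12 for MCL1 (SE 0.17). None passed (DESeq2 adjusted p from 0.744 to 0.975), against 9.83 percent of genes called (3.31 percent higher and 6.52 percent lower in clone 4), and edgeR, which called 14.9 percent, called none and had 0 members at an unadjusted p under 0.05. BCL2A1 had an unadjusted p of 0.0273 and no adjusted p in this DESeq2 fit, and 0.0093 and an adjusted p of 0.0650 without treatment as a covariate. The 2 clones did not overlap in BCL2L1 or BCL2L2, which was also the case for 63.1 percent of expressed genes. They did overlap in BCL2, where the untreated library was the lower one in each clone.

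**Figure D2:**
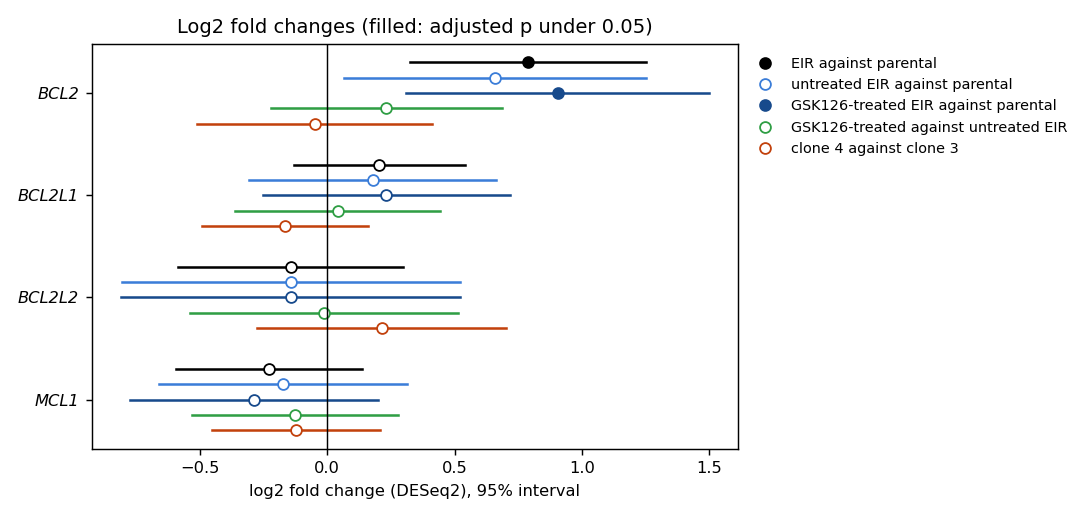
Log2 fold changes from DESeq2 (x axis) with 95% intervals for the 4 expressed members (rows) in the 5 comparisons (colours), filled where the adjusted p was under 0.05. Only the BCL2 values of 0.79 for EIR against parental cells and 0.90 for GSK126-treated EIR against parental cells are filled, and all intervals of BCL2L2 and MCL1 include 0.

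Levels of different members were compared per length, as counts per kilobase of transcript scaled to sum to 1000000 in a library. In parental cells the order was MCL1 (65.5), BCL2L1 (49.1), BCL2L2 (13.4), BCL2 (1.98) and BCL2A1 (0). MCL1 was thus 33.1 times and BCL2L1 24.8 times the BCL2 level. In EIR libraries the BCL2 level was 2.80 to 4.28, the BCL2L1 level 46.8 to 65.1, the BCL2L2 level 11.9 to 15.2 and the MCL1 level 53.2 to 63.4.
BCL2 remained the lowest of the 4 expressed members per length in every library. MCL1 was 13.4 to 19.0 times and BCL2L1 15.2 to 18.8 times the BCL2 level in EIR libraries. This scale was affected by short RNAs. Genes with transcripts under 300 bases held 24.2% of the length-scaled sum in untreated clone 4 and 8.50% to 10.6% elsewhere, and the BCL2L1 level of 46.8 in that library stands below the parental 49.1 although its normalized count was higher.

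Shares within the family need no scaling between libraries, but they were not corrected for GC content. BCL2 made up 1.52% of the summed level of the 5 members in parental cells, 2.41% and 2.82% in untreated and GSK126-treated clone 3, and 2.44% and 3.02% in untreated and GSK126-treated clone 4. BCL2L1 made up 37.8% in parental cells, 45.2% and 44.7% in clone 3, and 40.8% and 45.9% in clone 4. MCL1 made up 50.4% in parental cells, 43.7% and 43.7% in clone 3, and 46.4% and 40.4% in clone 4.
The parental share lay below all 4 EIR shares for BCL2 and BCL2L1 and above all 4 for MCL1. This order held with the longest transcript or the merged exons as length, and with the read-through gene added to BCL2L2. By normalized count the parental library lay outside the EIR range for 72.5 percent of expressed genes. No such percentage was computed for shares. For BCL2 the choice of length is no test of the order. A gene's length is the same in every library, and BCL2 rose against each other expressed member in all 4 EIR libraries. The BCL2L2 share was 10.3% in parental cells and 8.43% to 10.7% in EIR cells, so that the groups overlapped, and BCL2A1 reached at most 0.35%.
Among the reads of the 5 genes, those of BCL2 were 2.82% in parental cells (95% Wilson interval 2.55 to 3.12, of 12719 counts). The lowest EIR share was 4.52% (4.18 to 4.88) in untreated clone 3 and the highest 5.75% (5.32 to 6.20) in GSK126-treated clone 4. These intervals cover counting error only, since amplified reads are not independent molecules, and they do not include the spread between cultures.

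**Figure D3:**
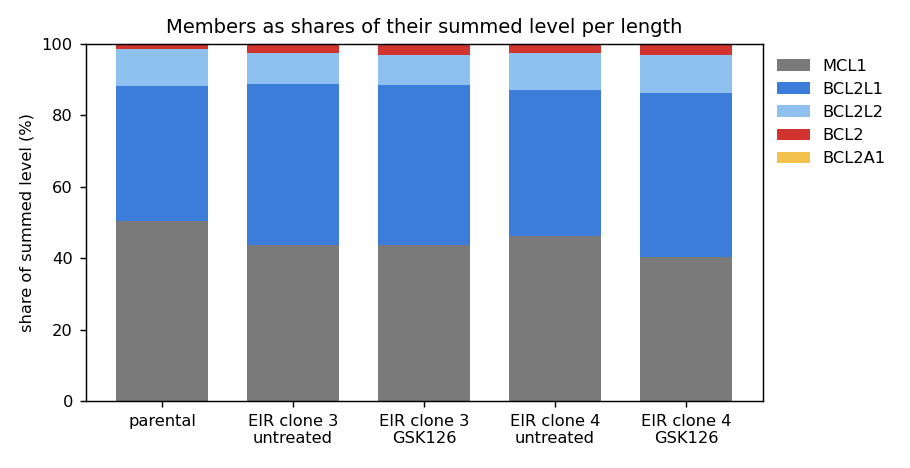
Share of each member in the summed level per length of the 5 members (y axis, percent) in each library (x axis), stacked to 100%. MCL1 (grey) makes up 50.4% in parental cells and between 40.4% and 46.4% in EIR cells, while BCL2L1 (dark blue) and BCL2 (red) take larger shares in all 4 EIR libraries and BCL2A1 is too small to be seen.

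Ratios between members were also taken within each library, on the log2 scale. BCL2 over MCL1 was 1.02 ± 0.23 (SD, n = 4) higher in EIR than in parental cells, BCL2 over BCL2L2 was 0.93 ± 0.21 higher and BCL2 over BCL2L1 was 0.58 ± 0.13 higher. BCL2L1 over MCL1 was 0.44 ± 0.15 higher. Each of these 4 ratios was higher in 4 of 4 EIR libraries, and BCL2L2 over MCL1 (0.086 ± 0.22) was higher in 2 of 4. How often other pairs of genes show such an order was not computed. BCL2L2 over BCL2L1 was -0.35 ± 0.23 relative to parental cells and was higher in 0 of 4. The ratios rest on the same counts as the fold changes above and are not separate results. They were not corrected for GC content. With that correction the log2 fold changes against parental cells were 0.74 for BCL2, 0.52 for BCL2L1, 0.18 for BCL2L2 and -0.26 for MCL1. Those values set BCL2 closer to BCL2L1 and BCL2L2, and BCL2L1 farther from MCL1, than the ratios do.
The MCL1 level was 1.33 times the BCL2L1 level in parental cells and 0.97, 0.98, 1.14 and 0.88 times in untreated clone 3, GSK126-treated clone 3, untreated clone 4 and GSK126-treated clone 4. Which of the members led in EIR cells depended on the length used, since with the longest transcript the ratio was 1.45 in parental cells and 0.96 to 1.24 in EIR cells. BCL2, BCL2L1 and BCL2L2, the targets of ABT263, together made up 49.6% of the family level in parental cells and 53.6% to 59.6% in EIR cells. This sum also depends on the length used. The parental BCL2L2 share of 10.3% became 5.07% with the longest transcript, 5.01% with merged exons and 17.3% with the read-through gene.

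The other side of the family was examined for the same libraries. The summed level of the 5 anti-apoptotic members, in normalized counts per kilobase, was 4250 in the parental library and 4192 ± 189 (SD, n = 4) in the EIR libraries, a difference smaller than their spread. The effectors BAX, BAK1 and BOK summed to 1441 in parental cells and 938 ± 58.5 in EIR cells, and 9 BH3-only genes to 4029 and 2816 ± 164. The anti-apoptotic sum was therefore 2.95 times the effector sum in parental cells and 4.28 to 4.57 times in EIR cells, and 1.05 times the BH3-only sum in parental cells and 1.36 to 1.60 times in EIR cells. The parental value lay inside the EIR range of 3953 to 4377 for the anti-apoptotic sum and above the EIR range for both sums of partners. These sums and ratios were not corrected for GC content. With that correction the log2 fold changes against parental cells were -0.026 for BAX, 0.19 for BAK1, -1.65 for BOK and 0.52 for BCL2L1. Values of the BH3-only genes with it are given below. The ratios of sums were not computed with it.

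None of the 3 effectors passed in EIR against parental cells in DESeq2 (median log2 fold change -0.44, against 0.0025 over all genes tested), with 1 at an unadjusted p under 0.05 there and 0 in edgeR. BAX, a pore-forming effector, had a normalized count of 526 in the parental library against 343 to 439 in EIR cells. BAK1, the effector held by MCL1 and BCL-xL, had 563 in the parental library against 399 to 610 in EIR cells. BOK, an effector that needs no activation by BH3-only proteins, had 449 in parental cells, 171 and 164 in clone 3, and 23.4 and 57.1 in untreated and GSK126-treated clone 4 (log2 fold change -2.11, SE 0.96, adjusted p = 0.0905). BAX and BOK lay below the parental value in all 4 libraries and BAK1 in 3 of 4. A parental library outside the EIR range, on either side, was seen for 72.5 percent of expressed genes. With the GC correction the log2 fold changes of BAX and BAK1 were -0.026 and 0.19, and neither passed.

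Of the 9 BH3-only genes 1 was higher and 1 lower in EIR cells in DESeq2 (median log2 fold change -0.14), against 25.5 percent of all genes called, and edgeR called 1 of 9 against 11.1 percent. BBC3, which encodes PUMA, a p53 target that binds every anti-apoptotic member, had a normalized count of 630.5 in the parental library against 86.0 to 120 in EIR cells. The fold change of -2.66 on the log2 scale (SE 0.31, adjusted p = 4.2e-15 in DESeq2) held in all 12 alternatives. HRK, which binds mainly BCL-xL, had 14.1 in parental cells, 90.7 and 95.9 in clone 3, and 43.7 and 97.3 in untreated and GSK126-treated clone 4 (log2 fold change 2.54, SE 0.70, adjusted p = 0.0024), and passed in 10 of 12 alternatives but not in edgeR (adjusted p = 0.0614).
The other 7 did not pass. PMAIP1 (NOXA, a ligand of MCL1) had a log2 fold change of 0.44 with all 4 EIR libraries above the parental one, and BAD (a ligand of BCL2, BCL-xL and BCL-w) had -0.97 with all 4 below it. BID had -0.63, BCL2L11 (BIM) -0.83, BMF -0.032, BIK 0.32 and BNIP1, whose main role is in membrane fusion, lay between 521 and 562 normalized counts in EIR libraries and at 602 in parental cells. With the GC correction the log2 fold changes were -0.47 for BAD, -0.34 for BID, -0.61 for BCL2L11 and 0.42 for BMF. They were 0.39 for PMAIP1, 0.63 for BIK and -0.0031 for BNIP1, and none passed. The parental library lay outside the EIR range for 72.5 percent of expressed genes.

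**Figure D4:**
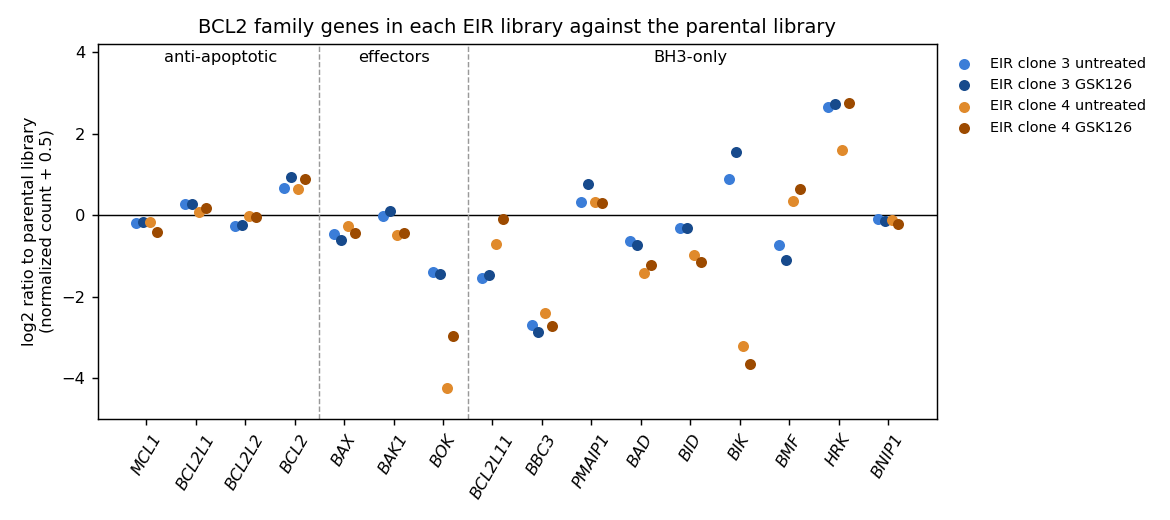
Log2 ratio of the normalized count (plus 0.5) in each EIR library to the parental library (y axis) for 4 anti-apoptotic members, 3 effectors and 9 BH3-only genes (x axis), with BCL2A1 left out because its parental count was 0. The members lie within 1 log2 unit of the parental library. BBC3, BOK and HRK lie farther from it in all 4 EIR libraries, and some other BH3-only genes in fewer libraries. BIK, BMF and BOK are among the genes that separate the clones, as 63.1 percent of expressed genes do.

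Clone 4 was lower than clone 3 in BOK (log2 fold change -2.17), BID (-0.76) and BIK (-4.88), and higher in BCL2L11 (1.09) and BMF (1.41), all past the threshold in DESeq2 (adjusted p from 1.4e-05 to 0.0115). BIK, a BH3-only protein of the endoplasmic reticulum, stood at 60.2 and 95.9 normalized counts in clone 3 against 3.1 and 2.1 in clone 4. BCL2L11 had 571 in the parental library, 196 and 208 in clone 3, and 348 and 532 in clone 4, so both clones lay below parental cells. Between clones 4 of 9 BH3-only genes and 1 of 3 effectors were called in DESeq2, where 9.83 percent of all genes were called, and the counts were the same in edgeR, which called 14.9 percent.
Among regulators of the caspases downstream of the members, BIRC3 (log2 fold change -2.44) and BIRC2 (-0.88), ubiquitin ligases of the NF-kB pathway, were lower in clone 4, and CASP9, the initiator caspase, was higher (1.14). BIRC3 stood at a normalized count of 2777 in the parental library, 7979 and 9331 in clone 3, and 1770 and 1434 in clone 4. CASP9 had 866 in the parental library, 230 and 169 in clone 3, and 483 and 396 in clone 4, so both clones lay below parental cells. Of 7 other BCL2-like genes 1 passed, BNIP3 (0.53), a mitophagy receptor.

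Apoptosome genes and their inhibitors gave 1 higher and 2 lower of 11 in EIR against parental cells in DESeq2, a share near the 25.5 percent of all genes, and edgeR called 2 of 11. CYCS, cytochrome c, had a normalized count of 5859 in the parental library against 15655 to 19736 in EIR cells (log2 fold change 1.57, SE 0.21, adjusted p = 7.4e-12), with the limit that it has many near-identical pseudogene copies among which reads can be divided. APAF1, the scaffold of the apoptosome, had -0.68 (adjusted p = 0.0217) but passed in 6 of 12 alternatives and not in edgeR (adjusted p = 0.0757). HTRA2, a mitochondrial protease, had -0.92 (adjusted p = 0.0007) and passed in 11 of 12. The median of the list was -0.19.
Turnover factors and partners of the members gave 2 higher and 5 lower of 14 in DESeq2 (median -0.30), against 25.5 percent of all genes called, and edgeR called 3 of 14 against 11.1 percent. ITPR1 and ITPR3, calcium channels of the endoplasmic reticulum that BCL2 binds, moved apart, with log2 fold changes of 1.34 and -1.46 that held in all 12 alternatives. BAG1, a co-chaperone first found as a BCL2 partner, had 0.78 and did not pass in edgeR (adjusted p = 0.0909). BTRC, a ubiquitin ligase subunit that acts on MCL1, had -0.71, MARCHF5, a mitochondrial ubiquitin ligase, -0.60, BAG6, a chaperone, -0.76 and VDAC2, an outer membrane channel that carries BAK1, -0.57. The last 3 did not pass in edgeR (adjusted p = 0.0564, 0.114 and 0.0661) and passed in 5, 2 and 7 of 12 alternatives. BAG6 had -0.37 with the GC correction (adjusted p = 0.484). None of the 14 passed between clones in DESeq2, where 4 had an unadjusted p under 0.05, or in edgeR, where 7 had one.

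Transcription factors known to act on the members gave 2 higher and 2 lower of 13 tested against parental cells in DESeq2 (median -0.23), a share near the 25.5 percent of all genes, and edgeR called 1 of 13. HIF1A (0.56) and CREB1 (0.53), which can act on the BCL2 promoter, were higher, ATF4 (-0.62) was lower and STAT5B (-4.77) was lower, from 721 normalized counts in parental cells to between 4.1 and 48.4 in EIR cells. HIF1A, CREB1 and ATF4 did not pass in edgeR (adjusted p = 0.0819, 0.0569 and 0.0622), and with the GC correction HIF1A had 0.16 (adjusted p = 0.343) and ATF4 -0.35 (adjusted p = 0.182). STAT5B is close in sequence to STAT5A, so that reads can be divided between them. STAT5A had 3 counts in the parental library and 0 in every EIR library, and a division of reads was not tested. Between clones 5 of 13 were lower in clone 4 in DESeq2, against 6.52 percent of all genes lower, namely NFKB1 (-0.90), STAT3 (-0.87), MYC (-0.60), STAT5B (-2.85) and WT1 (-7.38). WT1 had a normalized count of 38.3 in the parental library, 169 and 168 in clone 3, and 0.0 and 2.1 in clone 4.
NFKB1, a subunit of NF-kB, had normalized counts of 3454 in the parental library, 2838 and 2963 in clone 3, and 1659 and 1465 in clone 4. Both SWI/SNF ATPases passed in EIR against parental cells, SMARCA2 with a log2 fold change of 1.35 and SMARCA4 with -0.64, and neither passed between clones. SMARCA4 did not pass with the GC correction (-0.28, adjusted p = 0.108) or with the libraries of each clone summed (adjusted p = 0.0890). None of the 7 other BCL2-like genes passed against parental cells in DESeq2 (2 at an unadjusted p under 0.05) or in edgeR (1).

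Genes expressed like a member were ranked by the root mean square difference of centred log2 normalized counts over the 5 libraries, among 11563 expressed genes. Nearest to BCL2 were LRRC8B (0.031), CCND3 (0.038) and TTLL7 (0.045). LRRC8B, a subunit of volume-regulated anion channels, had a normalized count of 702 in the parental library against 1087 to 1269 in EIR cells. Its treated libraries lay above the untreated ones, an order that follows from its choice by likeness to BCL2. CCND3, cyclin D3, had 586 in the parental library against 847 to 1065 in EIR cells.
Nearest to BCL2L1 were SPRYD3, SMCR8 and DCLRE1B (0.016 to 0.025), to BCL2L2 SHROOM3, UBN1 and YIPF4 (0.024 to 0.028), and to MCL1 NDUFS6, NRBP2 and NDUFA6 (0.016 to 0.022). With 5 libraries these are descriptions of likeness. Each member was also set beside the expressed genes within 5 Mb on either side. The median log2 ratio to the parental library was 0.11 to 0.27 across EIR libraries for 15 neighbours of BCL2, where BCL2 itself had 0.64 to 0.93. It was -0.35 to -0.084 for 64 neighbours of BCL2L1, where BCL2L1 had 0.070 to 0.28, and -0.35 to -0.14 for 117 neighbours of MCL1, where MCL1 had -0.42 to -0.16. For 75 neighbours of BCL2L2 it was -0.31 to -0.13, where BCL2L2 had -0.27 to -0.024. For 55 neighbours of BCL2A1 it was -0.18 to -0.027, and BCL2A1, at 0 counts in the parental library, has no ratio.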

How the data were processed

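RNA-seq was performed on total RNA with a stranded kit. The authors aligned reads to hg19 with Bowtie2 and estimated counts per gene with RSEM (1.2.3 in the submitters' processing notes). The expected counts they deposited were whole numbers, not normalized, and were used as they stood. Whether counting used the strand, and the annotation release, are not given in the sources used here. Total counts were 25479238 to 30764963 per library.

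Symbols, positions, transcript lengths (median over a gene's transcripts) and GC content came from GENCODE 44 on GRCh37, which matched 95.8% of identifiers. Promoters came from RefSeq, which matched BCL2, BCL2L1 and BCL2A1.

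DESeq2 1.42.0 in R 4.3.3, the study's tool, was fitted to all genes (two-sided Wald test, Benjamini-Hochberg adjusted p under 0.05). The spread came from the EIR libraries, and both libraries of a clone come from 1 clone. Clone 4 against clone 3 had treatment as covariate. The clone number in the labels pairs treated with untreated libraries, whose deviations from the group means correlated (r = 0.862 across 11564 genes). Ratios used a pseudocount of 0.5, expressed genes had a mean of at least 100 normalized counts, and the floor was 3 counts. The fits were also run on simulated counts with known changes. These were drawn as independent libraries with an assumed dispersion and no clones, so they do not test the calls under this pairing.

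The members and lists were chosen with earlier results of these data known. All members were named in every comparison, as were effectors, BH3-only genes and list genes called against parental cells or between clones, and the 3 genes most like each expressed member. Lists were the effectors, BH3-only genes, other BCL2-like genes, apoptosome and inhibitors, turnover and partners, transcription factors, SWI/SNF ATPases and cell type markers.

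Alternatives were edgeR 4.0.16 (quasi-likelihood, filterByExpr), TMM or total count scaling, filters of 10 counts in every or in 2 libraries, each EIR library left out, clones summed, treatment as covariate, GC correction, no covariate, a replicate block, other lengths and the read-through gene. Leaving out libraries without the covariate, and normalized counts per kilobase, were added after seeing the data.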

Additional observations from a re-analysis of the deposited data

Results flagged for a closer look

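In groups of 4 libraries, a library far from the others was looked for in 22 sets of values, and chance alone marks about 1 in 20. MCL1 in GSK126-treated clone 4 had a normalized count of 5931 against 6986 to 7116 in the other EIR libraries, a gap of 0.891 of the whole range. PMAIP1 in GSK126-treated clone 3 had 722 against 527 to 534 (0.963 of the range), and HRK in untreated clone 4 had 43.7 against 90.7 to 97.3 (0.877 of the range).

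The treated over untreated log2 ratio had opposite signs in the clones for MCL1, at 0.024 in clone 3 and -0.26 in clone 4, a difference of -0.29. The same held for BCL2L2, at 0.028 and -0.027, a difference of -0.054. With 1 library per clone and treatment these differences were not tested.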

How the results depend on the processing

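The number of members called in EIR against parental cells was 1. It fell to 0 in edgeR, with the libraries of each clone summed and with treatment as covariate, ranged from 0 to 1 when an EIR library was left out, and became 2 with the GC correction. For GSK126-treated EIR against parental cells it was 1, and it was 0 in edgeR and 0 (lowest and highest) when any EIR library was left out, where a lone library is assumed to vary like the others. The cause was not tested. Over all genes DESeq2 called 4157, 1998 and 2017 genes in EIR, untreated EIR and GSK126-treated EIR against parental cells, against 2024, 3 and 3 in edgeR. Total count scaling raised the median of all log2 fold changes in GSK126-treated EIR against parental cells by 0.11, and 63.5% of the called genes were then higher, against 50.5% before. BCL2 stood at 1.01 there.

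With the clone number as a replicate block, the pairing changed no call of a member between GSK126-treated and untreated EIR cells. BCL2 had 0.23 with an adjusted p of 0.9999 in DESeq2 with the block, and calls over all genes went from 1 to 4.

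BCL2L2 against parental cells reversed to 0.18 with the GC correction. Leaving out 1 library at a time turned the sign of uncalled log2 fold changes between GSK126-treated and untreated EIR cells, with ranges of -0.068 to 0.16 for BCL2L1, -0.12 to 0.11 for BCL2L2, -0.28 to 0.0026 for MCL1 and -4.29 to 4.99 for BCL2A1. BCL2L2 was 0.070 there with total count scaling and 0.0018 with at least 10 counts in every library. Between the clones the same omission was fitted without the covariate, since no residual degrees of freedom remained with it, and gave ranges of -0.18 to 0.059 for BCL2 and -0.26 to 0.0055 for MCL1. BCL2 reached 0.059 and 0.057 and MCL1 0.0055.

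Mean EIR shares moved with the length used. BCL2 went from 2.67% to 2.13% with merged exons. BCL2L2 went from 9.50% to 4.69% with the longest transcript, 4.62% with merged exons and 17.4% with the read-through gene. MCL1 went from 43.5% to 47.8%, 46.8% and 39.7% in the same settings, and BCL2L1 from 44.1% to 40.3% with the read-through gene.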
